A study of Mus musculus with 17 samples.

Results

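Macrophages in a tumor can carry genes of arginine use, scavenging, type 2 activation and lipid uptake. The 10 genes described here were picked by name from the 21931 genes measured in distant MC38 tumors: Arg1, Nos2, Mrc1, Cd163, Chil3, Retnla, Trem2, Spp1, Apoe and Gpnmb. All 10 were in the table and all 10 passed the filter on low counts that left 13005 genes for testing. MC38 is a mouse colon cancer line, here labelled WT, and its cells were placed subcutaneously on both flanks of C57BL/6J mice aged 6 to 8 weeks. In the cryoablation group, 1 tumor was frozen through a probe on day 7, at 5 to 6 mm in diameter, and the opposite tumor, which was never frozen, was taken 5 days later and sequenced. The labels give 2 freezing cycles of 20 s, and the text of the study gives another time. The control group had no ablation, and whole tumors of 9 control and 8 cryoablation samples were compared to ask whether freezing 1 tumor was followed by a change in the other. These group sizes are those of the labels, the text of the study gives them the other way round, and every direction below follows the labels. Nothing in the labels ties each tumor to its own mouse, so p values measure the spread between these samples.

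Macrophages of mice are often described along a range from classical activation, driven by interferon-gamma and bacterial products, to alternative activation, driven by IL-4 and IL-13. Nos2 marks the first state and makes nitric oxide from arginine, whereas Arg1 splits the same amino acid into ornithine and urea, and Mrc1, Cd163, Chil3 and Retnla are taken as marks of the second. Trem2, Spp1, Apoe and Gpnmb are the genes by which lipid-associated and scar-associated macrophages are recognized, and such cells are common in tumors, although tumor cells and stroma can also express Spp1, Apoe and Gpnmb.

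Total counts per tumor lay between 13524899 and 17898672, and a count of 3 stood for 0.168 to 0.222 CPM, the count scaled by the library total. Levels are given below as CPM after TMM scaling, which corrects for a few abundant genes taking a large share of a library. Cryoablation tumors 2, 4 and 5 stood apart, with TMM factors of 0.767 to 0.886 against 0.922 to 1.104 in the other 14. The same 3 tumors held the highest summed level of the epithelial genes Epcam, Krt8, Krt18, Krt19 and Cdh1, at 141 to 214 CPM against at most 96.3 CPM elsewhere. They also held the highest summed level of the red cell genes, at 91.5 to 175 CPM against at most 74.6 CPM elsewhere, and tumors 2 and 5 had the highest macrophage identity level (mean log2 CPM 6.94 and 7.06) after control tumor 4 (7.12). The part of these in the levels below was not tested. Fold changes that leaving out the 3 tumors moved by over 1.5 times are given with and without them. The sampled tissue did hold macrophages by its markers: 16 of 16 identity genes, among them Csf1r, Adgre1, Cd68 and C1qa, passed the filter, and their summed level was 2235 to 5567 CPM in control and 1499 to 7964 CPM in cryoablation tumors.

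None of the 10 genes passed the test for a difference between the groups. At an unadjusted p under 0.05 by edgeR's quasi-likelihood test, 0 of 10 were called, where 4.91% of all 13005 genes were, and after Benjamini-Hochberg adjustment 0 of 10 were called, as for all genes. Groups without overlap were found in 0 of the 10 and in 0% of all genes. Of the 10, Trem2 and Apoe had fold changes above 0 and the other 8 below, with a median of -0.21 on the log2 scale against -0.0088 over all genes tested. In whole tumors, fewer cells of a type and less RNA per cell cannot be told apart.

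**Figure D1:**
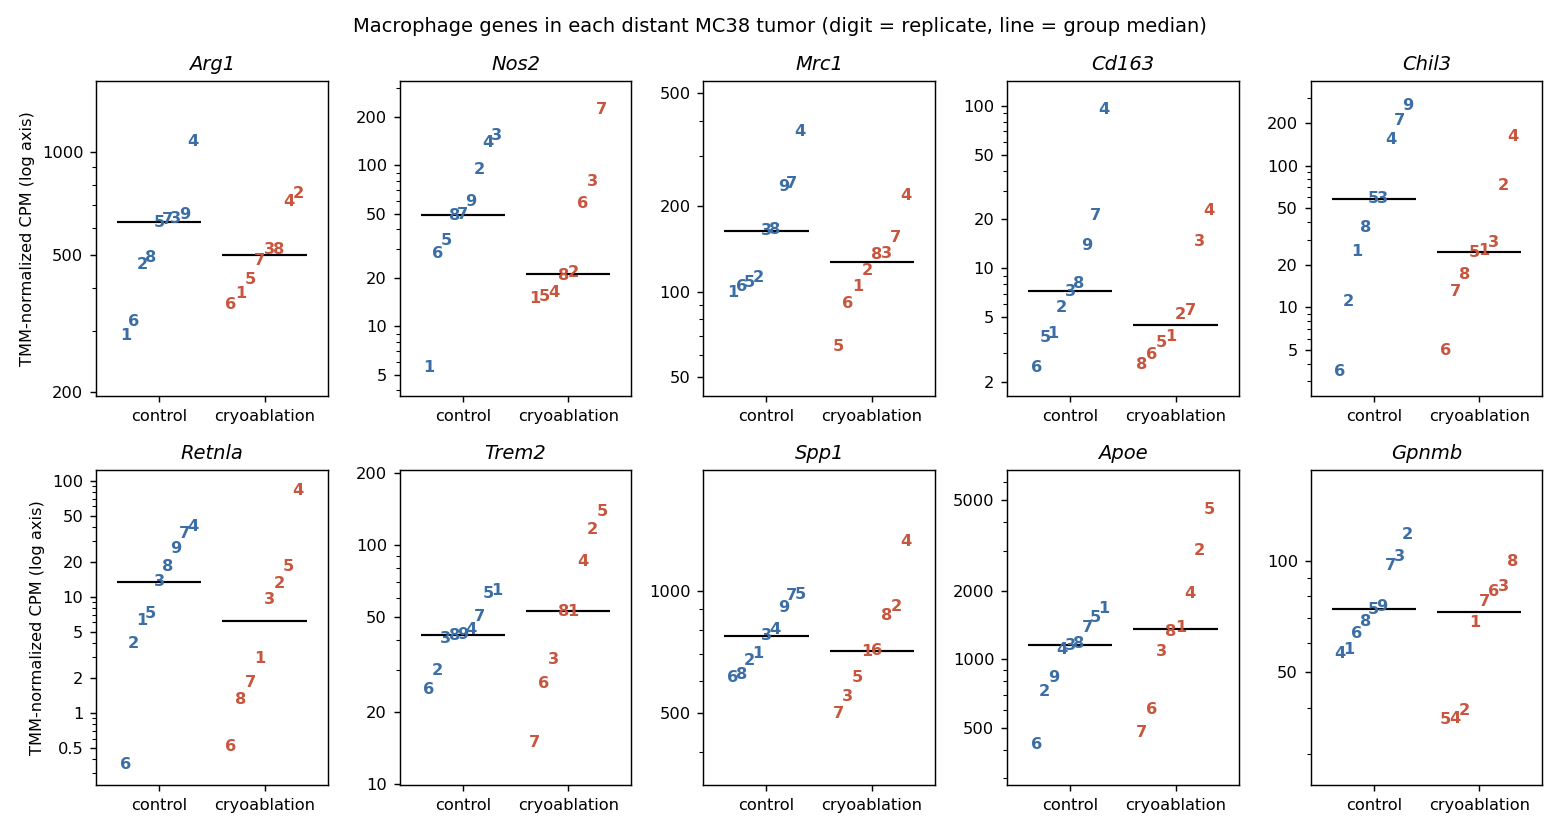
TMM-normalized CPM of each of the 10 genes in each tumor (log axis), with digits for the replicate number, placed from low to high within a group, and lines for the group medians. The groups overlap in all 10 panels, and cryoablation tumors 2, 4 and 5 lie above the control range in Trem2 and Apoe and below it in Gpnmb.

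Arg1, the cytosolic arginase (ENSMUSG00000019987, GRCm38 chr10:24915221-24927484), was among the most abundant genes of these tumors. In control tumors its lowest, median and highest levels were 291, 623 and 1071 CPM, and in cryoablation tumors 359, 501 and 755 CPM. The cryoablation values lay inside the control range, with 6 of 8 below the control median. The log2 fold change was -0.15 (SE 0.23, 95% interval -0.62 to 0.32, edgeR p = 0.513, adjusted p = 0.814, two-sided exact permutation p = 0.693), and it was 0.0068 without control tumor 4, the highest of all, and -0.36 without cryoablation tumors 2, 4 and 5.

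Nos2, inducible nitric oxide synthase (ENSMUSG00000020826, chr11:78920787-78960254), varied far more. It ran from 5.53 through a median of 49.2 to 153 CPM in control tumors, and from 15.0 through 21.1 to 222 CPM in cryoablation tumors. Cryoablation tumor 7 had the highest level and control tumor 1 the lowest, and 5 of 8 cryoablation tumors, including 2, 4 and 5, lay at or below 21.6 CPM. Cryoablation over control, the log2 fold change of Nos2 was -0.28 (SE 0.61, 95% interval -1.57 to 1.01, edgeR p = 0.654, adjusted p = 0.868, exact permutation p = 0.456). It was -1.08 without cryoablation tumor 7, -0.05 without control tumor 3 and 0.20 without cryoablation tumors 2, 4 and 5.

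Both enzymes draw on arginine, so their ratio was taken within each tumor, per base of gene length. Arg1 exceeded Nos2 in 17 of 17 tumors, by 4.33-fold in cryoablation tumor 7 and 103-fold in control tumor 1. The log2 ratio was 4.45 ± 1.07 (SD, n = 9) in control and 4.89 ± 1.54 (SD, n = 8) in cryoablation tumors. The difference of 0.43 was smaller than either spread (two-sided exact permutation p = 0.503) and was 0.21 to 0.83 when any 1 tumor was left out. Cryoablation tumors 2, 4 and 5 had the highest log2 ratios of their group, at 6.11, 6.45 and 5.77. Cryoablation tumors 1 and 8 had 5.67 and 5.64, and tumors 3, 6 and 7, at 3.71, 3.62 and 2.12, lay below the control mean. The difference without tumors 2, 4 and 5 together was not tested. Of 11 other genes of arginine transport and metabolism that passed the filter, 0 were called at p under 0.05 by edgeR, and their median log2 fold change was -0.15. The second arginase, Arg2, had at most 31 counts in any tumor and was not tested.

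Mrc1 encodes the mannose receptor CD206, an endocytic lectin (ENSMUSG00000026712, chr2:14229392-14332057). Control tumors ran from 99.6 through 164 to 368 CPM and cryoablation tumors from 64.4 through 127 to 219 CPM. In cryoablation tumors, 7 of 8 were below the control median, and tumors 5 and 6 were below every control. For Mrc1 the log2 fold change was -0.47 (SE 0.28, 95% interval -1.05 to 0.11, edgeR p = 0.104, adjusted p = 0.728, exact permutation p = 0.185), and -0.27 without control tumor 4, which had the highest level. Without cryoablation tumor 4 it was -0.63, past an unadjusted p of 0.05 by edgeR, with an adjusted p of 0.883.

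Cd163, the scavenger receptor for haptoglobin and hemoglobin (ENSMUSG00000008845, chr6:124304656-124330527), was the least abundant of the 10 per base of length. It ran from 2.45 through 7.24 to 94.8 CPM in control and from 2.57 through 4.48 to 22.8 CPM in cryoablation tumors. Control tumor 4 alone, with 1465 counts, lay far above all others, the next being cryoablation tumor 4. The log2 fold change of -1.23 (SE 0.70, 95% interval -2.70 to 0.24, edgeR p = 0.0969, adjusted p = 0.728, exact permutation p = 0.357) shrank to -0.13 without control tumor 4 and was -1.70 without cryoablation tumor 4, where its unadjusted edgeR p fell under 0.05 (adjusted p = 0.883). Across the tumors Cd163 followed Mrc1, with Pearson r = 0.88 and Spearman rho = 0.83 of log2 CPM (0.96 in control and 0.69 in cryoablation tumors).

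Chil3, also called Ym1, is a chitinase-like lectin without chitinase activity that is secreted by alternatively activated macrophages (ENSMUSG00000040809, chr3:106147554-106167564). Control tumors ran from 3.53 through 58.2 to 263 CPM and cryoablation tumors from 4.95 through 24.6 to 161 CPM. Tumor 6 was the lowest in both groups, and 6 of 8 cryoablation tumors lay under the control median. On the log2 scale Chil3 differed by -1.07 (SE 0.74, 95% interval -2.63 to 0.49, edgeR p = 0.168, adjusted p = 0.734, exact permutation p = 0.359). It was -0.68 without control tumor 9 and -1.78 without cryoablation tumor 4 (unadjusted edgeR p under 0.05, adjusted p = 0.883).

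Retnla encodes FIZZ1 or RELM-alpha, a small secreted protein induced by IL-4 and IL-13 through STAT6 (ENSMUSG00000061100, chr16:48842551-48844461). It had the widest spread of the 10, from 0.359 through 13.5 to 39.9 CPM in control and from 0.512 through 6.18 to 82.9 CPM in cryoablation tumors. Cryoablation tumor 4 was above every control, while cryoablation tumors 1, 6, 7 and 8 lay at or below 2.92 CPM. The highest tumor had 231 times the level of the lowest, and 99.9% of the genes tested had a smaller SD of log2 CPM. Between the groups Retnla had a log2 fold change of -0.05 (SE 0.84, 95% interval -1.81 to 1.71, edgeR p = 0.954, adjusted p = 0.987, exact permutation p = 0.450), and -1.33 without cryoablation tumor 4. Leaving out cryoablation tumors 2, 4 and 5 together gave -2.38 for Retnla and -2.36 for Chil3, both with an unadjusted edgeR p under 0.05 and an adjusted p of 0.941.

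Chil3 and Retnla moved together over the tumors, with r = 0.90 and rho = 0.86, and r was 0.93 within control and 0.91 within cryoablation tumors. Without the 2 tumors farthest from the median, r was 0.89 on the Chil3 axis and 0.83 on the Retnla axis. Because these genes moved together, the 250 bases before the RefSeq start (GRCm38.p6) of each are shown, with matches to 6 short motifs in capitals: a STAT site TTCNNNGAA, a STAT6 site with the same ends set 4 bases apart, a C/EBP site TTGCNNAA, the PU.1 core GAGGAA, an AP-1 site TGANTCA and an E-box CATGTG, searched on both strands.
Chil3 promoter, chr3:106167565-106167814, minus strand: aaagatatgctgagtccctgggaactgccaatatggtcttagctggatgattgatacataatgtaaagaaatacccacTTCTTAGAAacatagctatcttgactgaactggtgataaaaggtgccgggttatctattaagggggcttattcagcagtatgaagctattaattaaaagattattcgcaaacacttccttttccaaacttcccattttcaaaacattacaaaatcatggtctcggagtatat
Retnla promoter, chr16:48842359-48842608, plus strand: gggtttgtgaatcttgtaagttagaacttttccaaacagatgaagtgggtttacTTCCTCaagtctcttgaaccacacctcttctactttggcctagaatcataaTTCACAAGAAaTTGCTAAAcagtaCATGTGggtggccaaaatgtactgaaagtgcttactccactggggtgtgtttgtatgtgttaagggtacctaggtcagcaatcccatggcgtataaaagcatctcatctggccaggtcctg
The Chil3 window held 1 match, TTCTTAGAA, at 172 to 164 bases before the start. The Retnla window held 4, which do not overlap: the PU.1 core on the opposite strand (TTCCTC, 196 to 191), a STAT6 match (TTCACAAGAA, 145 to 136), a C/EBP match (TTGCTAAA, 134 to 127) and the E-box (121 to 116). Of 32851 promoter windows of this length, 7.02% held TTCNNNGAA, 5.85% the STAT6 site, 9.56% TTGCNNAA, 23.3% GAGGAA, 6.75% TGANTCA and 12.3% CATGTG. A match is a run of letters and was not tested as a binding site.

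Trem2 is a lipid-sensing receptor of macrophages and microglia that signals through Tyrobp (ENSMUSG00000023992, chr17:48346401-48354147). Control tumors ran from 24.9 through 42.2 to 64.5 CPM and cryoablation tumors from 14.9 through 52.7 to 137 CPM. Cryoablation tumors 2, 4 and 5, at 85.3 to 137 CPM, were above every control, and cryoablation tumor 7 was below every control. The SD of log2 CPM was 0.45 in control and 1.10 in cryoablation tumors. The log2 fold change was 0.54 (SE 0.35, 95% interval -0.19 to 1.27, edgeR p = 0.140, adjusted p = 0.728, exact permutation p = 0.513). It was 0.68 without cryoablation tumor 7 (unadjusted edgeR p under 0.05, adjusted p = 0.470), 0.29 without cryoablation tumor 5 and -0.32 without tumors 2, 4 and 5.

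Apoe encodes apolipoprotein E, a lipid carrier that binds TREM2 (ENSMUSG00000002985, chr7:19696109-19699188). It ran from 421 through 1151 to 1664 CPM in control and from 475 through 1353 to 4532 CPM in cryoablation tumors. The same 3 cryoablation tumors, at 1953 to 4532 CPM, were above every control, and the other 5, at 475 to 1376 CPM, lay within the control range. For Apoe the log2 fold change was 0.70 (SE 0.38, 95% interval -0.10 to 1.49, edgeR p = 0.0817, adjusted p = 0.728, exact permutation p = 0.311). It was 0.34 without cryoablation tumor 5 and -0.19 without tumors 2, 4 and 5. Leaving out cryoablation tumor 6 or 7 gave 0.82 (adjusted p = 0.482) and 0.83 (adjusted p = 0.470), both with an unadjusted edgeR p under 0.05.

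Trem2 and Apoe were the most closely tied pair of the 10, with r = 0.96 and rho = 0.96 over 17 tumors, 0.94 within control and 0.98 within cryoablation tumors. Without cryoablation tumors 2, 4 and 5, r was 0.92, and after the mean log2 level of the 16 macrophage identity genes was regressed out of both it was 0.89. With that mean alone, r was 0.80 for Trem2 and 0.80 for Apoe, and with the TMM factor of the library it was -0.83 and -0.80, so that tumors with a low factor had the high levels. The part of the scaling in these levels was not tested beyond the other scalings, under which both fold changes kept their sign. The promoters of this pair, from RefSeq as above, are shown with the same 6 motifs in capitals.
Trem2 promoter, chr17:48346151-48346400, plus strand: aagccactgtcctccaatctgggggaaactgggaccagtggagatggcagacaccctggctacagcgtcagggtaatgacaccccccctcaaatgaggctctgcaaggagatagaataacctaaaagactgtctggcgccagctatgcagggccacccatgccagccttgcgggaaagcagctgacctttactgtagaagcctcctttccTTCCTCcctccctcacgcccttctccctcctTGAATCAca
Apoe promoter, chr7:19699189-19699438, minus strand: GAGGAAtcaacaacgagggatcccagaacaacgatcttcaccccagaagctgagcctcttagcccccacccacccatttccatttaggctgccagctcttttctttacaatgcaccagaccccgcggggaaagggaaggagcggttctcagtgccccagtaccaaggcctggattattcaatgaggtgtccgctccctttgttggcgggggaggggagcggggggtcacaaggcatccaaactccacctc
The Trem2 window held the PU.1 core on the opposite strand (TTCCTC, 40 to 35 bases before the start) and an AP-1 match (TGAATCA, 9 to 3). The Apoe window, the one of 3 listed for this gene that lies nearest to its annotated start, held the PU.1 core at 250 to 245. PU.1 is the lineage factor of macrophages, and its core is the most frequent of the 6 motifs in promoters at large.

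**Figure D2:**
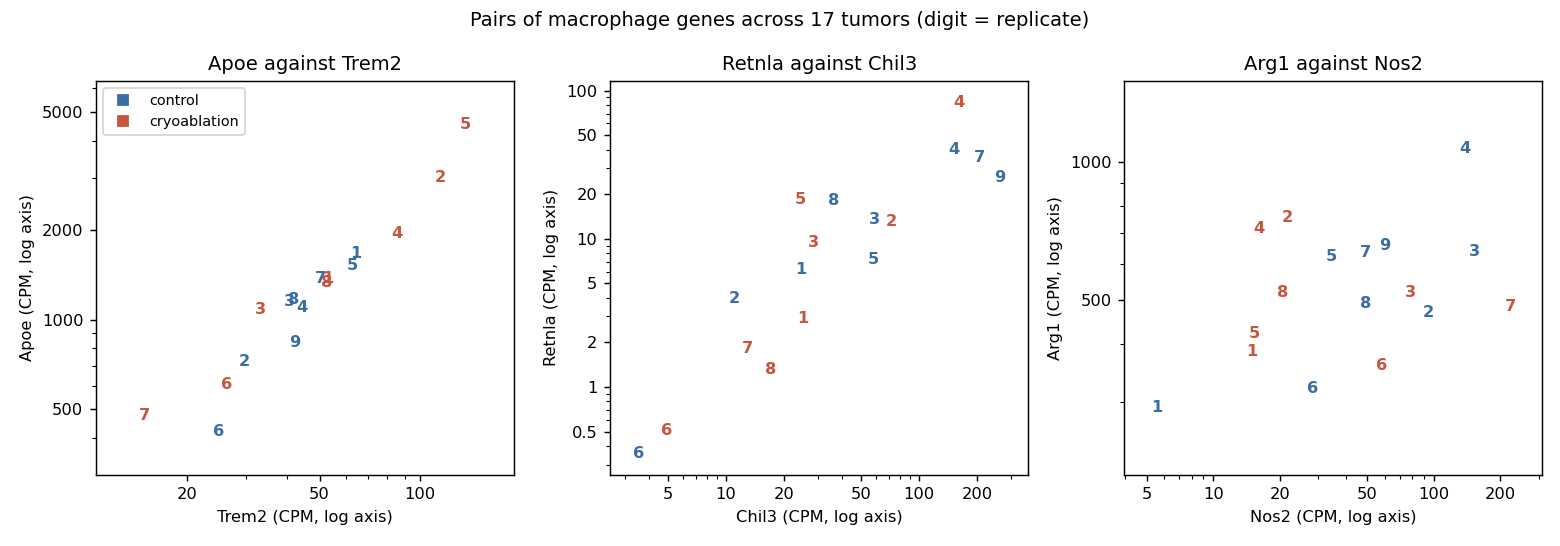
Levels of 3 gene pairs in each of the 17 tumors (CPM, both axes log), with digits for the replicate number and color for the group. Apoe rises with Trem2 (r = 0.96) and Retnla with Chil3 (r = 0.90) in both groups, while Arg1 and Nos2 have r = 0.42. With the macrophage identity level regressed out, r of Arg1 and Nos2 was 0.67.

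Spp1 encodes osteopontin, a secreted phosphoprotein that binds CD44 and integrins (ENSMUSG00000029304, chr5:104435118-104441050). It was the steadiest of the 10, running from 610 through 775 to 981 CPM in control and from 499 through 711 to 1324 CPM in cryoablation tumors. The highest tumor had 2.65 times the level of the lowest, and 50.2% of genes tested had a smaller SD. Cryoablation tumor 4 was above every control and cryoablation tumors 3 and 7 were below. The log2 fold change was -0.02 (SE 0.17, 95% interval -0.38 to 0.35, edgeR p = 0.929, adjusted p = 0.977, exact permutation p = 0.741). Without cryoablation tumors 2, 4 and 5 it was -0.24.

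Gpnmb encodes a glycoprotein of lysosome-rich macrophages, osteoclasts and pigment cells (ENSMUSG00000029816, chr6:49036546-49070929). Control tumors ran from 56.1 through 74.0 to 118 CPM and cryoablation tumors from 37.0 through 72.8 to 99.3 CPM. Cryoablation tumors 2, 4 and 5, at 37.0 to 39.2 CPM, lay below every control, and the other 5 lay within the control range. For Gpnmb the log2 fold change was -0.26 (SE 0.22, 95% interval -0.72 to 0.20, edgeR p = 0.244, adjusted p = 0.745, exact permutation p = 0.198), -0.18 without cryoablation tumor 5 and 0.06 without tumors 2, 4 and 5. Although Gpnmb and Trem2 are listed together for lipid-associated macrophages, they ran in opposite directions here, with r = -0.66 over all tumors, -0.26 in control and -0.79 in cryoablation tumors. This rested on cryoablation tumors 2, 4 and 5, without which r was -0.16. The r of Gpnmb was 0.80 with the TMM factor and -0.51 with the macrophage identity level. Markers of pigment cells were near the floor, with Tyr and Tyrp1 at 0 counts in 17 of 17 tumors, and the summed pigment cell list reached at most 1.43 CPM.

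**Figure D3:**
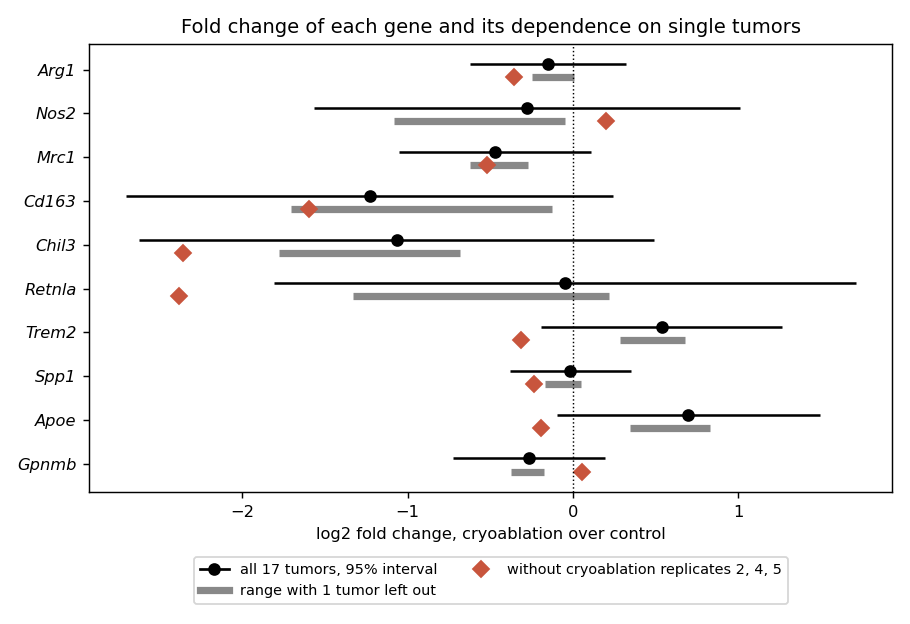
Log2 fold change of each gene, cryoablation over control: black points with 95% intervals for all 17 tumors, gray bars for the range when 1 tumor is left out, and red diamonds without cryoablation tumors 2, 4 and 5. All 10 intervals include 0, and the diamonds of Nos2, Trem2, Apoe and Gpnmb lie on the other side of 0 from their points.

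Per kilobase of gene length, the levels averaged over the 17 tumors fell in the order Apoe (669 CPM per kb), Spp1 (472), Arg1 (247), Chil3 (41.8), Retnla (27.6), Mrc1 (24.2), Nos2 (14.05), Gpnmb (11.2), Trem2 (10.9) and Cd163 (2.39). The ranges of all neighbours in this order overlapped. Within single tumors, Spp1 exceeded Arg1 and Arg1 exceeded Chil3 in 17 of 17, Apoe exceeded Spp1 in 12, and Retnla exceeded Mrc1 in 7. Apoe, Spp1 and Arg1 thus stood above 99.6%, 99.3% and 98.6% of the genes tested on this scale, and Cd163 above 26.5%. Group accounted for 0.758% (Spp1) to 11.5% (Mrc1) of the variance of each gene's log2 level.

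Over the 45 pairs of the 10 genes, r was above 0.5 in 18 and below -0.5 in 4. These correlations describe 17 points that share libraries and composition, and carry no test. Arg1, Mrc1, Cd163, Chil3 and Retnla formed a block in which all pairs were positive, from r = 0.58 (Mrc1 and Retnla) to 0.90. With the macrophage identity level regressed out, these 10 pairs ran from 0.55 (Arg1 and Retnla) to 0.91, and with that level subtracted instead, from 0.25 (Arg1 and Retnla) to 0.87. Within cryoablation tumors, Mrc1 and Retnla had r = 0.29. The block was not closed, as Spp1 was also positive with each of its genes, from r = 0.32 (Cd163) to 0.67 (Chil3). Retnla had r = 0.58 with Apoe and 0.55 with Trem2. The 4 negative pairs were Nos2 with Trem2 (r = -0.67) and with Apoe (r = -0.57), and Gpnmb with both. Without cryoablation tumors 2, 4 and 5 they became -0.62 and -0.46 for Nos2, and -0.16 (Trem2) and -0.05 (Apoe) for Gpnmb. Arg1 and Nos2 had r = 0.76 in control and -0.18 in cryoablation tumors, and the difference between these was not tested. With the macrophage identity level regressed out, r of Nos2 was 0.67 with Arg1, 0.57 with Cd163, 0.52 with Mrc1, 0.25 with Retnla and 0.24 with Chil3. With that level subtracted, these values were 0.71, 0.42, 0.62, -0.08 and 0.0039.

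**Figure D4:**
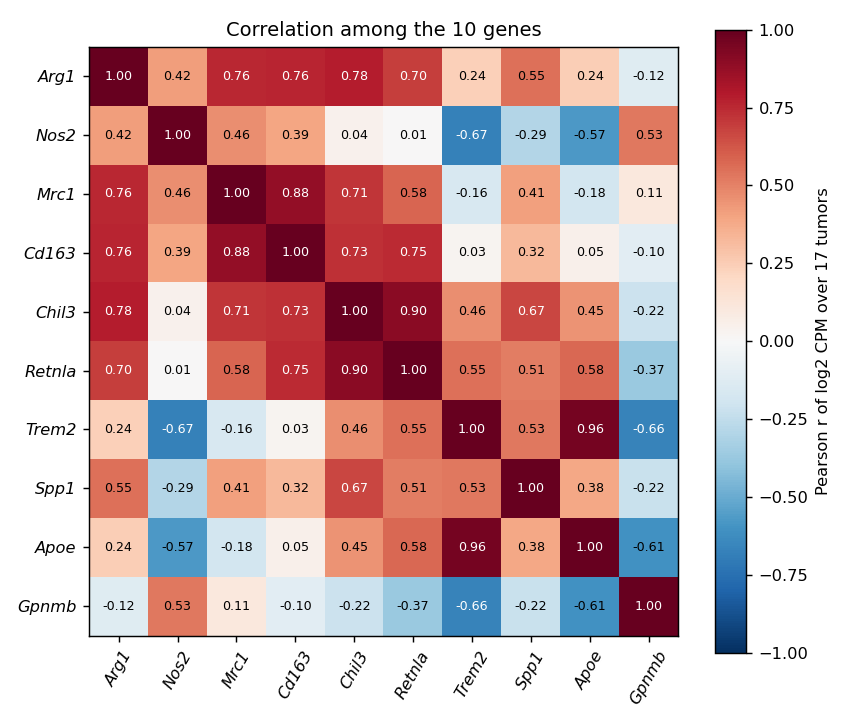
Pearson r of log2 CPM over 17 tumors for each pair of the 10 genes, from -1 (blue) to 1 (red). Trem2 and Apoe share the highest r (0.96), the 5 genes Arg1, Mrc1, Cd163, Chil3 and Retnla form a positive block, and Nos2 and Gpnmb are negative with Trem2 and Apoe.

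Among all genes tested, the 3 with the highest r to each were named. For Trem2 they were C1qb (r = 0.98), a complement subunit made by macrophages, then Crlf2 (0.96) and Apoe (0.96), and for Apoe they were Trem2, Smagp (0.96) and Crlf2 (0.95). The nearest to Chil3 were F7 (0.92), the chemokine Ccl24 (0.92) and the macrophage lectin Mgl2 (0.91), and to Retnla Npl (0.93), Chil3 and Trabd2b (0.90). Arg1 was nearest to Pdcd1lg2 (0.95), which encodes PD-L2, then to Srgn (0.91) and F7 (0.91). Nos2 was nearest to Ell2 (0.95), Tmed8 (0.93) and Prl2c2 (0.93), Mrc1 to Ubl3 (0.91), Slc41a3 (0.89) and Ccdc71l (0.88), and Cd163 to Hsd11b1 (0.94), Pcsk5 (0.93) and Gapt (0.92). The nearest to Spp1 were Ap3s1 (0.82), Isca1 (0.82) and Sec22b (0.81), and to Gpnmb Gm52955 (0.90), Klf4 (0.90) and Laptm4a (0.90).

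The macrophage identity genes had a mean log2 level of 6.44 ± 0.33 (SD, n = 9) in control and 6.43 ± 0.48 (SD, n = 8) in cryoablation tumors. Taken relative to this level in each tumor, Apoe differed by 0.45 (two-sided exact permutation p = 0.132), Trem2 by 0.27 (exact p = 0.314), Mrc1 by -0.41 (exact p = 0.238) and Chil3 by -0.82 (exact p = 0.307). Of the 16 identity genes, 9 had fold changes above 0 and 7 below, with a median of 0.098 on the log2 scale. Only Adgre1, an adhesion receptor gene used to mark mouse macrophages, was called, and it fell by 0.69 (SE 0.29, edgeR p = 0.0290, adjusted p = 0.728, exact permutation p = 0.0465). That call was lost without control tumor 4, where the fold change was -0.28, without cryoablation tumor 4 and without cryoablation tumor 7. The share of genes lower at p under 0.05 was 1.17% over all genes, and the share higher was 3.74%.

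Among 26 genes of TREM2 signaling and lipid handling, 1 rose and 1 fell, with a median log2 fold change of -0.08. Fabp4, a fatty acid carrier of macrophages and fat cells, rose by 0.86 on the log2 scale (SE 0.35, edgeR p = 0.0246, exact permutation p = 0.0937). Its call was lost without cryoablation tumor 2, 3 or 4, and it was 0.36 higher without cryoablation tumors 2, 4 and 5. Markers of fat cells varied beside it, from 6.28 to 77.7 CPM summed in control and 2.09 to 143 CPM in cryoablation tumors, and their part in Fabp4 was not tested. Abcg1, a cholesterol exporter, fell by 0.63 (SE 0.27, edgeR p = 0.0333, exact permutation p = 0.0891), and the fall was 0.34 without control tumor 4, while the call was kept in 12 of 17 fits that left out 1 tumor. Of 12 receptors for apoE and osteopontin, among them Lrp1 and Cd44, 0 were called, with a median of -0.13.

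Of 19 tested genes of alternative activation beyond the 10, 0 were called, 4 were above 0 and 15 below, with a median of -0.20. The 16 genes of classical activation gave 1 call in each direction and a median of -0.18. Il6, an inflammatory cytokine, was 2.30 higher (edgeR p = 0.0160, exact permutation p = 0.812), which rested on cryoablation tumor 7, with 508 counts where the next tumor had 29, and without it the value was -0.27. That tumor also had the highest Nos2 level and the lowest Trem2 level. Il12b, a subunit of IL-12 and IL-23, fell by 1.14 (edgeR p = 0.0459, exact permutation p = 0.149) and by 0.53 without control tumor 4, with the call kept in 8 of 17 such fits. Among genes of macrophage growth factors and their receptors, 1 of 5 was called, Csf2ra, a subunit of the GM-CSF receptor, which fell by 0.47 (edgeR p = 0.0462, exact permutation p = 0.0820) and by 0.29 without control tumor 4, with the call kept in 6 of 17.

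Of the genes close in sequence to the 10, Mrc2 was well expressed, at a mean of 201 CPM in both groups, above Mrc1. Chil4, a near copy of Chil3, had at most 4 counts in a tumor, and Retnlb at most 1. Chil1 rose by 1.36 (edgeR p = 0.0452, exact permutation p = 0.0766, at most 33 counts) and Retn, the resistin gene of mouse fat cells, rose by 1.57 (edgeR p = 0.0415, exact permutation p = 0.241, at most 107 counts), each with the call kept in 6 of 17 fits that left out 1 tumor. Without cryoablation tumors 2, 4 and 5 they were 0.72 and 0.71 higher. How reads shared by such copies were counted is not given in the sources used here. No other gene in the table overlapped any of the 10 on the genome.

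Of 59 tested markers of other cells, 9 (15.3%) had an unadjusted p under 0.05 by edgeR, 8 higher and 1 lower, against 4.91% of all genes. These lists were chosen with earlier results of these data known, and the study had named Hba-a1, Hbb-bs, Hbb-bt, S100a8 and S100a9 from these tumors. The share is therefore a description and not a test. Of the neutrophil list, 2 of 6 tested were called, S100a8, higher by 1.34 (edgeR p = 0.0205, exact permutation p = 0.0554), and S100a9, higher by 1.61 (edgeR p = 0.0232, exact permutation p = 0.127). Both calls were lost without cryoablation tumor 7, where the values were 1.04 and 1.11. Of the 6, 4 had fold changes above 0 and 2 below, Csf3r (-0.51) and Mmp8 (-0.45). The eosinophil gene Siglecf fell by 1.80 (edgeR p = 0.0196, exact permutation p = 0.0422), or by 0.87 with the call lost without control tumor 4, which had 146 counts where the next had 37. That tumor was the highest of the 17 in Arg1, Mrc1 and Cd163. It was also the highest in the macrophage identity level and in the summed eosinophil (37.1 CPM), neutrophil (75.1), dendritic cell (63.5), T and NK cell (97.0), endothelial (367) and fibroblast (13249.5) markers, and the part of these cells in those levels was not tested. Cfd, a fat cell gene, rose by 1.61 (edgeR p = 0.0278, exact permutation p = 0.236) with the call lost without cryoablation tumor 2 or 5. With any 1 tumor left out Cfd was 1.33 to 2.06 higher, and without cryoablation tumors 2, 4 and 5 it was 0.70 higher. All 4 tested red cell genes rose: Hba-a1 by 1.75 (edgeR p = 0.00610, exact permutation p = 0.0125), Hbb-bs by 1.54 (edgeR p = 0.0113, exact p = 0.0142), Hbb-bt by 1.45 (edgeR p = 0.00841, exact p = 0.00613) and Alas2 by 0.71 (edgeR p = 0.0104, exact p = 0.0140). Without cryoablation tumors 2, 4 and 5 these were 0.44, 0.52, 0.97 and 0.80 higher. Of 7 dendritic cell, 5 osteoclast, 8 fibroblast, 5 endothelial, 5 epithelial, 3 muscle and 8 T and NK cell genes tested, 0 were called by edgeR. Over all lists, 16 of 169 tested genes (9.47%) had an unadjusted p under 0.05, against 4.91% of all genes, and 0 an adjusted one. That share has the same limit, as the lists were chosen with earlier results known.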

How the data were processed

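RNA from whole distant tumors (9 control, 8 cryoablation) was sequenced from bead-selected mRNA on a NovaSeq platform. For each gene and tumor the authors deposited a read count, which is not normalized, and an FPKM value, which equalled the count over gene length and total count for 100% of values within a relative tolerance of 0.001 and was used for nothing else. The aligner, counter, strandedness and annotation are not given in the sources used here. Start and end in the table equal those of GENCODE M21 (GRCm38) for 512 of 21827 shared genes, so positions were taken from GENCODE M21. Groups came from the sample labels.

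Counts were tested with edgeR 4.0.16 in R 4.3.3 (TMM, filterByExpr by group, quasi-likelihood F test, group as the only term, Benjamini-Hochberg adjustment over 13005 genes). The standard error is the fold change over the square root of F. Exact permutation tests used log2 CPM with a prior count of 2 over all 24310 splits of the tumors, with a smallest p of 4.11e-05. DESeq2 1.42.0, limma 3.58.1, other scalings and filters, and fits without single tumors were alternatives, and the fit steps were tested on simulated data. All 10 genes are named, with the 3 tested genes most correlated with each and, from each list, genes with an unadjusted p under 0.05, up to 4, plus genes a result turns on. The 10 genes, the lists and the tests were chosen with earlier results of these data known. Promoters were found for 8 of the 10 genes in a RefSeq table (GRCm38.p6). Cd163l1 was not found in the table under that symbol. No pair of tumors had identical counts, and intervals cover the spread between tumors.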

Additional observations from a re-analysis of the deposited data

How the results depend on the processing

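No gene of the 10 had an adjusted p under 0.05 in any of the 28 other fits. The number of the 10 with an unadjusted p under 0.05 was 0, and became 1 with limma voom and sample quality weights (Mrc1, -0.56, adjusted p = 0.472), 2 without cryoablation tumors 2, 4 and 5 (Chil3 and Retnla), and 0 to 3 when 1 tumor was left out. Over all genes, 639 had an unadjusted p under 0.05 by edgeR, against 1312 with limma voom, 992 with no filter on low counts, 325 without cryoablation tumors 2, 4 and 5, and 252 (without cryoablation tumor 2) to 1388 (without cryoablation tumor 3) when 1 tumor was left out. Unscaled total counts, a choice made after seeing the data, gave 477 genes and 0 of the 10.

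Direction changed in 19 of 280 fold changes. Without cryoablation tumors 2, 4 and 5, Nos2 became 0.20, Trem2 -0.32, Apoe -0.19 and Gpnmb 0.056. With 1 tumor left out, Arg1 ran from -0.246 to 0.0068, above 0 only without control tumor 4, Retnla ran from -1.33 to 0.22, above 0 in 8 fits from 0.04 to 0.22, and Spp1 from -0.17 to 0.049, above 0 in 6 fits from 0.007 to 0.049. Retnla was also -2.35 with limma voom and -0.97 with the gene length trend removed. Nos2 was -0.92 with limma voom, and Cd163 was -0.62 with the replicate number as a block. With the macrophage identity level as a term, Apoe was 0.40, Trem2 0.25, Cd163 -0.55 and Nos2 -0.80. The cause of these changes was not tested.

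The labels number the tumors in both groups alike, but deviations of same-numbered tumors correlated from -0.51 to 0.64 and 2 of 8 pairs matched best, so the numbers were not taken to pair them. With the replicate number as a block, 439 genes and 1 of the 10 (Mrc1, -0.35, adjusted p = 0.618) had an unadjusted p under 0.05.

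Counts of 3 stood for at most 0.222 CPM by library totals, before the TMM scaling of the levels above. By counts, depth does not limit 9 of the 10 genes, whose lowest counts were 36 to 7044. Retnla had 6 counts in its lowest tumor. The spread between tumors left 95% intervals as wide as -1.81 to 1.71 for Retnla.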
